A study of Rattus norvegicus with 6 samples.

Results

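The miR-26 microRNAs, miR-26a and miR-26b, were followed in left ventricular myocardium of rats on 2 diets. They were taken as every array row listed for miR-26a or miR-26b, both strands included, with control spots left out. This gave 10 of the 1806 probes and 64 of the 12128 spots on each array, for 4 of the 758 miRNAs listed. The 4 strands were miR-26a-5p and miR-26b-5p, the strands usually loaded into the silencing complex, and the partner strands miR-26a-3p and miR-26b-3p. The samples were male Wistar rats on a high-fat diet for 20 weeks (3 samples, which the submitters' titles call obesity) and male Wistar rats on normal chow for the same 20 weeks (3 samples). Total RNA of each sample was labelled with the dye Cy3 and hybridised to 1 Agilent miRNA array. The composition of the high-fat diet and the age of the animals were not given in the sources used here. The labels do not say that the 3 samples of a diet were separate animals, so p-values measure only the spread between these samples, which may be technical. The tissue was whole myocardium with all its cell types, so fewer cells of a type and less of a miRNA per cell cannot be told apart.

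A miRNA is a short RNA that guides the silencing complex to messenger RNAs, mainly through its seed, bases 2 to 8 from the 5′ end. Both miR-26 genes lie inside genes of the small phosphatases that act on the C-terminal domain of RNA polymerase II, Mir26a in Ctdspl and Mir26b in Ctdsp1. In human and mouse cells miR-26 is known to repress the histone methyltransferase gene Ezh2 and the signal transducer gene Smad1, and in the heart the potassium channel gene Kcnj2. In mouse and human cells the transcription factor MYC lowers miR-26 together with a group of other miRNAs.

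The mature sequences are shown because the 2 main strands share their seed and differ at few bases, which bears on how far the probes can separate them. They are RefSeq's for the rat assembly GRCr8, all on the plus strand, 5′ to 3′, with the seed in capitals.
rno-miR-26a-5p: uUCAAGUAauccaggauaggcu
rno-miR-26b-5p: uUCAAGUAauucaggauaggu
rno-miR-26a-3p: cCUAUUCUugguuacuugcac
rno-miR-26b-3p: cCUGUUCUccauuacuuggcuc
miR-26a-5p lies at chr8:127633063-127633084 and miR-26a-3p at chr8:127633102-127633122. miR-26b-5p lies at chr9:83425723-83425743 and miR-26b-3p at chr9:83425759-83425780. Of the 758 miRNAs on the array, 685 matched a RefSeq mature sequence by name, and 2 of these carried the seed UCAAGUA, miR-26a-5p and miR-26b-5p. Counted from 1 at the 5′ end, with the miR-26a base first, the 2 strands differed by C11U and C21U and were identical at 19 of 21 positions compared. miR-26a-5p has 1 base more at its 3′ end. The partner strands were less alike, identical at 14 of 21 positions, and 1 of the differences, A4G, fell in the seed. Their seeds were thus different from each other and from that of the main strands. How much of the signal on a miR-26b-5p probe came from miR-26a-5p, or the reverse, was not measured.

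The hairpins are shown to place both strands, which are in capitals. The hairpin of Mir26a has 90 bases, at chr8:127633048-127633137, and that of Mir26b has 85 bases, at chr9:83425709-83425793, both on the plus strand of GRCr8.
Mir26a: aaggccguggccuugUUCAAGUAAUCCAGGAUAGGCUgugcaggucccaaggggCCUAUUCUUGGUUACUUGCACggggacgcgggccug
Mir26b: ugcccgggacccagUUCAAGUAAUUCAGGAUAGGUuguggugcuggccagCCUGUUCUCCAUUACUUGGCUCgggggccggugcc

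The study asked which cardiac miRNAs differ between the diets. Neither main miR-26 strand passed the adjusted test (0 of 2). miR-26a-5p differed by -0.11 on the log2 scale and miR-26b-5p by -0.31, high-fat minus chow. The lower mean of miR-26b-5p rested on 1 of the 3 high-fat samples. miR-26b-3p was well above background mainly on high-fat arrays, so its difference is given as a value with no test, and its direction changed with the processing. miR-26a-3p was not well above background on any array (0 of 6). Over all 425 miRNAs tested, 2 passed (0.471%), with 1 higher in high-fat samples (0.235%) and 1 lower (0.235%), and at an unadjusted limma p under 0.05 there were 50 (11.8%). The main miR-26 strands had unadjusted limma p-values of 0.170 and 0.292, so neither was among the 50. Signals are given as scaled log2 signal, the log2 of a probe's processed signal divided by the array's own 75th percentile of probes well above background on all arrays, and they are compared between arrays and not between probes.

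Any pair of arrays correlated at 0.990 to 0.996 across the tested miRNAs, which are not independent replicates. The 75th percentile was 415 to 561 scanner units on high-fat arrays and 359 to 424 on chow arrays, and no spot was saturated (0 on every array). The feature extraction software reports a stringency spike-in ratio as a check of the hybridisation. It was 0.974 to 1.94 on high-fat arrays, with the lowest value on high-fat replicate 2, and 3.44 to 4.19 on chow arrays. The ratio did not overlap between the diets, so diet and a difference in hybridisation cannot be told apart in any of the values below. miR-133b-3p, miR-1-3p and the other 4 heart muscle miRNAs of a marker list were all tested, and the liver miRNA miR-122-5p was well above background on 0 arrays.

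miR-26a-5p was steady across the samples. Its scaled log2 signal was 5.57, 5.48 and 5.40 on the 3 high-fat arrays, against 5.66, 5.57 and 5.54 on the 3 chow arrays. The diets overlapped, since high-fat replicate 1 lay above chow replicate 3. The means were 5.48 ± 0.08 on high-fat and 5.59 ± 0.06 on chow (SD, n = 3 each). The difference of -0.11 ± 0.0957 (SE) corresponds to 1.08-fold lower, with a 95% interval from -0.33 to 0.11 (limma adjusted p = 0.682). Over the 6 arrays its signal spanned 0.255 on the log2 scale, against a median span of 0.466 over the 425 miRNAs, and 67 of them had a span as small or smaller.

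The second probe of miR-26a-5p gave a difference of -0.06. Both probes have 8 spots on each array, and 6 to 8 of them were free of outlier flags and used. Before scaling, the processed signal of the first probe was 19653.5, 23688.6 and 23697.1 on high-fat arrays, against 18124.8, 20177.5 and 17534.3 on chow arrays. The high-fat mean was then 1.20 times the chow mean (2-sided exact permutation p = 0.2, smallest possible p = 0.1). So the sign of the miR-26a-5p difference depended on the scaling, as did that of the median of all miRNAs, at -0.04 with scaling and 0.32 without.

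miR-26b-5p, from the other gene, differed among the high-fat samples. Its scaled log2 signal was 4.59, 3.83 and 4.58 on the 3 high-fat arrays, against 4.66, 4.65 and 4.62 on the 3 chow arrays. On this brightest probe high-fat replicate 2 was low, and the other 2 high-fat arrays lay just under the chow arrays. All 3 high-fat arrays were below all 3 chow arrays on it, but not on the second probe. Read from their brightest probes, 45 of the 425 miRNAs (10.6%) had all high-fat arrays below. Another 28 (6.59%) had all high-fat arrays above, 73 (17.2%) in all. The means were 4.33 ± 0.44 on high-fat and 4.64 ± 0.02 on chow (SD, n = 3 each). The difference of -0.31 ± 0.204 (SE) corresponds to 1.24-fold lower, with a 95% interval from -0.79 to 0.17 (limma adjusted p = 0.616). Without high-fat replicate 2 it was -0.06 (limma adjusted p = 0.854). Its span over the 6 arrays was 0.834, and 372 of the 425 miRNAs had a span as small or smaller.

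**Figure D1:**
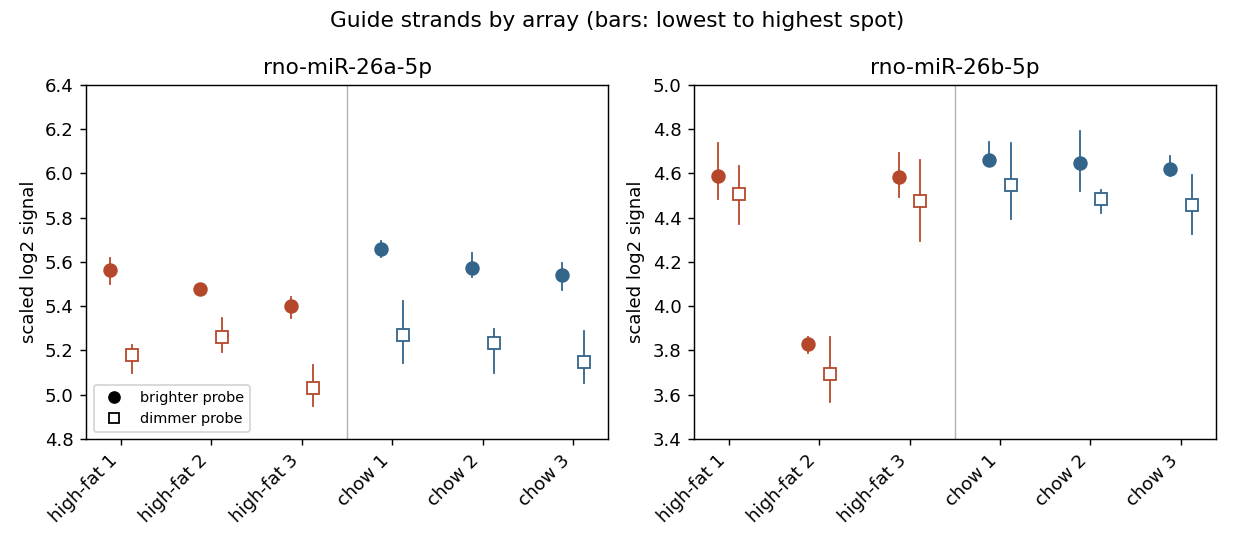
Scaled log2 signal of miR-26a-5p (left) and miR-26b-5p (right) on the 3 high-fat and the 3 chow arrays, with 1 symbol for each of the 2 probes of a strand and a bar from its lowest to its highest outlier-free spot; both axes span the same range of log2 units. miR-26a-5p varied little, and both probes of miR-26b-5p were low on high-fat replicate 2, at 3.83 and 3.69.

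The low value on high-fat replicate 2 was seen on both miR-26b-5p probes and on all their spots. The second probe was at 3.69 there, and its diet difference was -0.27. On it the diets overlapped, with high-fat replicate 1 at 4.51, above chow replicates 2 and 3 at 4.49 and 4.46. Across both probes the 14 outlier-free spots of high-fat replicate 2 lay between 3.57 and 3.86. The highest of all its spots, outlier spots included, was at 3.94. The lowest spot on any of the other 5 arrays, outlier spots included, was at 4.30, so the spots did not overlap. Spots of 1 array share its RNA and its hybridisation, so they are repeated readings of 1 sample.

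Before scaling, the miR-26b-5p signal was 9976.82, 7549.51 and 13449.1 on high-fat arrays, against 9093.8, 10633.3 and 9262.14 on chow arrays. High-fat replicates 2 and 3 were the lowest and the highest of the 6. The high-fat mean was 1.07 times the chow mean (2-sided exact permutation p = 0.8). The software's own error of the total signal of miR-26b-5p was 7.09% of that total on every array, high-fat replicate 2 included. For miR-26a-5p it was 7.09% to 7.14%. This error hardly varies for these bright strands, so it is no check of the low value.

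The difference of the 2 main strands within an array does not depend on the scaling between arrays. miR-26b-5p minus miR-26a-5p was -0.98, -1.65 and -0.82 on high-fat arrays, against -0.995, -0.92 and -0.92 on chow arrays, on the log2 scale. Its size is set by the probes, and only its change between arrays is read. High-fat replicate 2 stood below the other 5 arrays, high-fat replicate 1 lay within the range of the chow arrays and high-fat replicate 3 above it. The means were -1.15 ± 0.44 on high-fat and -0.95 ± 0.04 on chow (SD, n = 3 each), a difference of -0.20 (2-sided exact permutation p = 0.8, smallest possible p = 0.1). Without high-fat replicate 2 the difference was 0.05.

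There are 4 ways to pair a miR-26b-5p probe with a miR-26a-5p probe. In all 4 pairs high-fat replicate 2 was the lowest array, 0.72 to 0.89 below the mean of the other 5 on the log2 scale. This corresponds to a ratio of miR-26b-5p to miR-26a-5p that was 1.65-fold to 1.85-fold lower in that sample. The diet difference was between -0.25 and -0.16 over the 4 pairs, with 2-sided exact permutation p-values of 0.8 or 1.

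**Figure D2:**
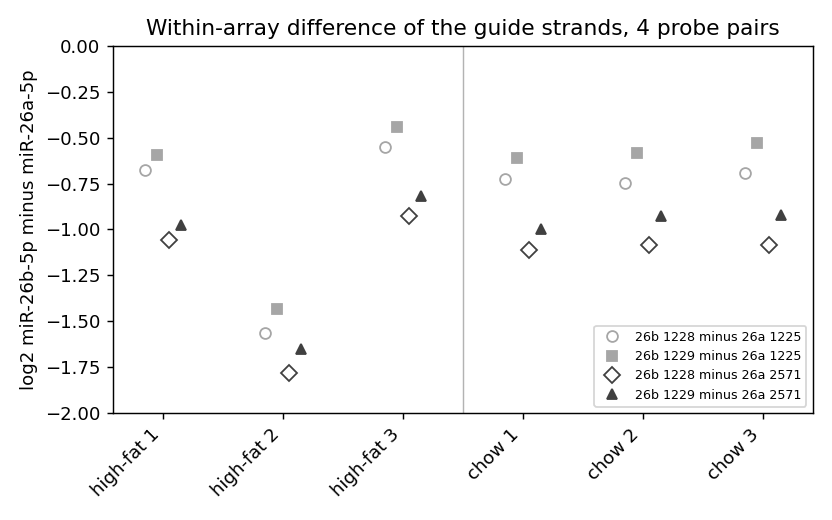
Log2 signal of miR-26b-5p minus that of miR-26a-5p within each array, for the 3 high-fat and the 3 chow arrays, with 1 symbol for each of the 4 probe pairs (legend numbers are the last digits of the probe names). All 4 pairs were lowest on high-fat replicate 2.

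Set against the mean of the other 2 high-fat arrays, miR-26b-5p on high-fat replicate 2 was 0.76 lower on the log2 scale, or 1.69-fold. By this measure it was at rank 4 from the lowest of the 425 miRNAs (0.941%). miR-26a-5p was 0.01 lower in the same comparison, at rank 220, and miR-26b-3p was 0.13 lower. This rank describes 1 sample and is not a test of the diet.

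Other miRNAs with few G and C bases were low on the same array. This property was looked at after the low value was seen, and 388 of the 425 tested miRNAs (91.3%) had a RefSeq sequence for it. The 2 main miR-26 strands are shown again with G and C in capitals.
rno-miR-26a-5p: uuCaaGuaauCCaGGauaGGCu
rno-miR-26b-5p: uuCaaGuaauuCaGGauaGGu
miR-26b-5p has 7 G or C of 21 bases (33.3%) and miR-26a-5p has 9 of 22 (40.9%). Among the 34 miRNAs with up to 35% G and C, the median on high-fat replicate 2 was -0.34 relative to the other 2 high-fat arrays, and 29 of the 34 were below 0. In the 5 classes with more G and C the median lay between -0.04 and 0.04. On high-fat replicates 1 and 3 the class up to 35% had medians of 0.13 and 0.22, in part because replicate 2 enters their comparison. On chow arrays, each set against the other 2, its medians were -0.05 to 0.07. The Pearson correlation of this measure with the G and C share was 0.17 on high-fat replicate 2. It was -0.15 and -0.04 on high-fat replicates 1 and 3, and 0.08, 0.11 and -0.20 on chow replicates 1 to 3. The largest of these, -0.20, had the opposite sign. On chow replicate 3 the median was -0.04 in the class up to 35% and -0.18 in that above 60%. miR-26b-5p was the third lowest of the 34 on high-fat replicate 2, after miR-208b-3p and miR-190a-5p. With each miRNA centred on its class, which was also chosen after seeing the data, miR-26b-5p on high-fat replicate 2 stood at -0.45, against 0.03 and 0.01 on the other high-fat arrays and 0.10 to 0.20 on chow arrays. Its diet difference was then -0.27 (limma adjusted p = 0.465). The part of base composition, or of the low spike-in ratio of that array, in the low miR-26b-5p value was not tested.

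**Figure D3:**
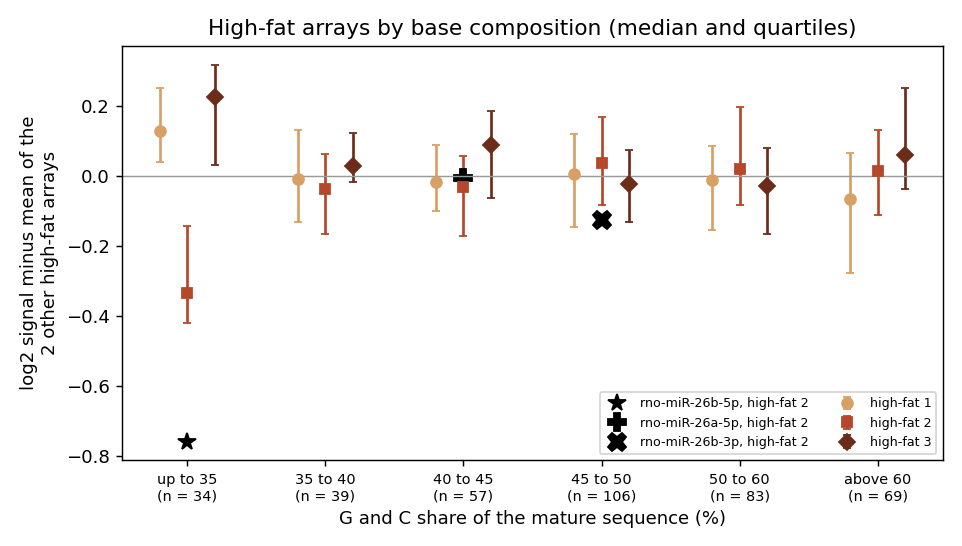
Log2 signal on each high-fat array minus the mean of the other 2 high-fat arrays, for 388 tested miRNAs grouped by the share of G and C in the mature sequence, as median (symbol) and quartiles (bar); black symbols mark the miR-26 strands on high-fat replicate 2. The class up to 35% was low on that array, with a median of -0.34, and miR-26b-5p lay below it at -0.76.

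The tested miRNAs with the nearest pattern over the 6 arrays were found by the root mean square of the difference of log2 signals, each centred on its own mean. For miR-26a-5p they were miR-1912-3p (0.0375), miR-3068-3p (0.0386), miR-29a-3p (0.0430), miR-23a-3p (0.0490) and miR-505-3p (0.0492), against a median of 0.160 over 424 miRNAs. These 5 have little variation, like miR-26a-5p, as the choice by nearness implies, and their diet differences ranged from -0.14 to -0.04. For miR-26b-5p the nearest were miR-126a-5p (0.113), miR-201-5p (0.117), miR-190a-5p (0.118), miR-352 (0.137) and let-7f-5p (0.142), against a median of 0.313.

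The 5 nearest to miR-26b-5p were all lowest on high-fat replicate 2, which follows from how they were chosen. The centred pattern of miR-26b-5p was -0.66 on that array and 0.10 to 0.17 on the others. Their low values there are thus no separate result. miR-126a-5p, whose gene lies in the endothelial gene Egfl7, had a scaled log2 signal of 2.98, 2.22 and 2.87 on high-fat arrays, against 2.85, 2.95 and 2.70 on chow arrays. let-7f-5p, of the let-7 family of differentiation, had 6.65, 6.10 and 6.45 on high-fat arrays, against 6.56, 6.57 and 6.53 on chow arrays. Their diet differences were -0.14 and -0.16, with limma adjusted p-values of 0.812 and 0.692. miR-26b-5p was at rank 354 of 424 in nearness to miR-26a-5p, and miR-26a-5p at rank 114 in nearness to miR-26b-5p. So neither was among the miRNAs closest to the other over these 6 arrays. Their centred patterns lay furthest apart on high-fat replicate 2, at -0.06 for miR-26a-5p and -0.66 for miR-26b-5p.

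The partner strand miR-26b-3p was close to the detection limit. On the brightest of its 4 probes it passed the background criterion in 3 high-fat samples and in 1 chow sample, with 0 of 4 spots well above background on chow replicates 1 and 3. It thus met the filter of 3 arrays through the high-fat samples, and no p, interval or fold is given for it. Of the 758 miRNAs, 414, 454 and 468 were well above background on high-fat arrays, against 395, 418 and 388 on chow arrays. The software's own flag called miR-26b-3p detected on all 6 arrays. Its scaled log2 signal was -4.75, -5.05 and -5.09 on high-fat arrays, against -5.12, -5.14 and -5.29 on chow arrays. All high-fat values lay above all chow values, as for 28 of the 425 tested miRNAs (6.59%), with little between the nearest pair. The means were -4.96 ± 0.19 on high-fat and -5.18 ± 0.10 on chow (SD, n = 3 each). The difference of these means was 0.22.

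The processed signal of that probe before scaling was 15.5, 16.1 and 16.4 on high-fat arrays, against 10.4, 12.1 and 9.61 on chow arrays. The high-fat values were the higher ones, over a chow group of which 2 arrays were not well above background. Unscaled signals were higher on high-fat arrays in general, with a median difference of 0.32 over all tested miRNAs. A second probe was well above background on 3 arrays and differed by -0.07. The other 2 probes of miR-26b-3p lay at the floor, the lowest value to which dim signals were set.

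In the authors' deposited value table, a log2 scale with the same median on every array (3.54), miR-26b-3p had 2.97, 1.61 and 0.61 on high-fat arrays, against 2.87, 2.76 and 2.79 on chow arrays. The authors' table thus gave a difference of -1.07, opposite in sign to that of the scanner signals. In this table the number of miRNAs at the lowest value was 310, 268 and 239 on high-fat arrays, against 319, 297 and 325 on chow arrays. The normalisation behind the authors' table is not given in the sources used here, and no direction is drawn for miR-26b-3p.

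**Figure D4:**
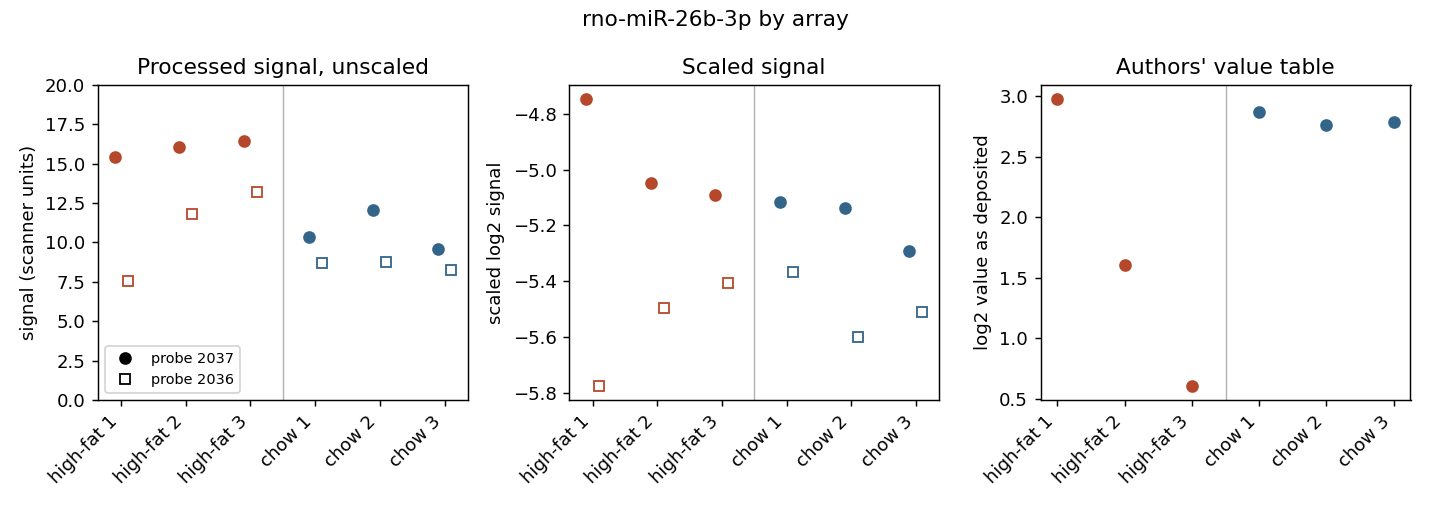
miR-26b-3p on the 3 high-fat and the 3 chow arrays, as processed signal in scanner units (left), as scaled log2 signal (middle) and as the authors' deposited log2 value (right); filled and open symbols are the 2 probes that were well above background on at least 1 array. The filled symbols are higher on high-fat arrays in the first 2 panels, and high-fat replicates 2 and 3 are the lowest in the third, at 1.61 and 0.61.

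miR-26a-3p was well above background on 0 arrays. The processed signal of its first probe was -1.39, -1.06 and -2.02 on high-fat arrays, against -1.88, -1.87 and -1.95 on chow arrays, negative after background subtraction on all 6. It was not tested and no fold is given.

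All 3 high-fat arrays and chow replicate 1 share the first number of the array position in the file headers, and chow replicates 2 and 3 have the other number. With that number as a block, the difference was -0.18 for miR-26a-5p and -0.33 for miR-26b-5p (limma adjusted p = 0.618 and 0.697), and 0.15 for miR-26b-3p. Chow replicates 2 and 3 are alone in their block and add nothing to these differences, which rest on chow replicate 1 as the only chow array. Within the 4 arrays of the first number, which include 1 chow array, the values were therefore the same by construction. There the lone chow array is assumed to vary like the high-fat arrays. The within-array difference of the 2 main strands was -0.15 with the block, with no p of its own.

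**Figure D5:**
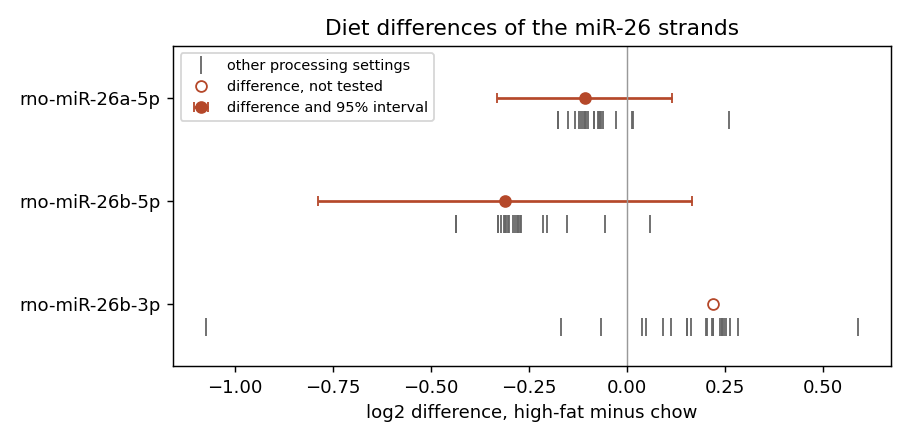
Log2 difference, high-fat minus chow, of 3 miR-26 strands, as the value (circle), the 95% interval of the main strands (line) and the values under other processing settings (ticks below); miR-26b-3p has no interval. Both intervals include 0, and ticks lie on both sides of 0 for each strand.

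As a frame for miR-26, 2 groups of miRNAs were looked at. The first was a selection, made from general knowledge, of 20 other miRNAs that MYC is known to lower, among them let-7, miR-29 and miR-30 members. All 20 were tested and 0 passed the adjusted test, against 0.471% of all miRNAs. Of these, 6 had a positive and 14 a negative difference, with a median of -0.05, against -0.04 over all 425. Those with the lowest p-values were miR-34a-5p (0.63, limma adjusted p = 0.192), a target gene of p53, miR-146a-5p (0.28, 0.409), an inhibitor of inflammatory signalling, miR-30c-5p (-0.28, 0.412) and miR-497-5p (0.25, 0.412). The diets did not overlap for 4 of the 20, against 17.2% of all miRNAs.

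The second group was 21 miRNAs with a gene in an intron of another protein-coding gene, as for miR-26. The array reads the mature strand, so other gene copies of the same strand are not told apart from that in the named host. The group shares miR-30c-5p and miR-30e-5p with the first group. All 21 were tested and 0 passed, against 0.471% of all miRNAs. They had 9 positive and 12 negative differences and a median of -0.04, against a median of -0.04 over all 425. The diets did not overlap for 6 of the 21, against 17.2% of all miRNAs. miR-208b-3p, of the slow myosin gene Myh7, differed by -0.97 (limma adjusted p = 0.297), and it was also the lowest miRNA on high-fat replicate 2 relative to the other high-fat arrays. Its scaled log2 signal was -0.90, -1.99 and -0.71 on high-fat arrays, against -0.28, -0.19 and -0.24 on chow arrays. miR-338-3p, of Aatk, differed by 0.45 (0.297) and miR-218a-5p, of Slit2, by 0.19 (0.445).

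Markers of the cell types in the tissue give the setting of these values. The heart muscle list (6 of 6 tested, 0 passed) had a summed scaled level of 316 to 404 on high-fat and 429 to 455 on chow arrays. The erythroid list (4 of 4 tested, 0 passed) had 15.3 to 21.5 on high-fat and 10.6 to 12.8 on chow arrays. The blood and immune list (6 of 6 tested, 0 passed) had 22.7 to 23.7 on high-fat and 21.4 to 22.4 on chow arrays. The ranges of these 3 sums did not overlap between the diets. A sum is led by its brightest probes, and in the blood and immune list 4 members had positive and 2 negative differences, with diets that did not overlap for 1 of the 6. Of the heart muscle list 6 of 6 differences were negative and 4 members did not overlap, and of the erythroid list 4 of 4 were positive and 2 did not overlap, against 17.2% of all miRNAs. The endothelial list (4 of 4 tested, 0 passed) had 62.9 to 74.0 on high-fat arrays, with 62.9 on high-fat replicate 2, and 69.6 to 73.2 on chow arrays. The fibroblast list (4 of 4 tested, 0 passed) had 20.7 to 22.1 on high-fat and 19.5 to 21.1 on chow arrays, and the smooth muscle list (2 of 2 tested, 0 passed) 52.6 to 58.2 and 52.2 to 55.7. The adipose list (4 of 5 tested, 0 passed) had 1.99 to 2.08 on high-fat and 1.87 to 2.33 on chow arrays. Of the fibroblast list 3 differences were positive and 1 negative, and 2 of 4 members did not overlap, against 17.2% of all miRNAs. In the endothelial, smooth muscle and adipose lists as many differences were positive as negative. The members that did not overlap were 0, 0 and 1 in these lists. The part of these cell types in the miR-26 values was not tested.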

How the data were processed

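Agilent Feature Extraction 11.0.1.1 turned each scan into intensity values, as the submitters' processing notes and, per the file headers, the files state. The deposited processed signal intensity is background-subtracted, with no scaling between arrays. The authors' value table holds log2 values whose normalisation is not given in the sources used here. The other columns used included the deposited flags for outlier spots, for spots well above background and for detected miRNAs.

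Outlier-free spots were averaged per probe. A probe was well above background when at least 50% of its spots were. Each array was divided by its 75th percentile over the 757 probes that met this on all 6 arrays. Values under the floor, the 1st percentile of scaled signals (log2 of -5.82), were set to it. Each miRNA was read from its brightest probe and tested when well above background on at least 3 arrays, which left 425 of 758. High-fat and chow arrays were compared by limma 3.58.1 under R 4.3.3 (lmFit and eBayes over all 425, Benjamini-Hochberg, threshold 0.05), and single values with 2-sided exact permutation tests.

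The members and lists were chosen with earlier results of these data known, and the other miRNAs named are the nearest 5 to each main strand and, from each list, up to 4 with the lowest p-values. miR-208b-3p is named also for its place on high-fat replicate 2, which was chosen after its values were seen. Same-numbered samples of the diets deviated together with correlations of 0.22, -0.01 and 0.06, so the numbers were not used as pairs. With 3 arrays per diet, their number limits the precision. Normexp used the median signal, since the mean was not in the files.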

Additional observations from a re-analysis of the deposited data

How the results depend on the processing

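Neither main strand passed the adjusted test under any alternative run, with lowest limma adjusted p-values of 0.349 for miR-26a-5p and 0.202 for miR-26b-5p. Values of miR-26b-3p are given with no test. Without scaling, miR-26a-5p differed by 0.26 and miR-26b-5p by 0.059. miR-26a-5p differed by 0.011 with quantile normalisation and by 0.014 with normexp and quantile normalisation. miR-26b-3p differed by -0.17 with normexp and the 75th percentile, by -1.07 in the authors' deposited table and by -0.067 on its other probe. The causes were not tested. Leaving out each replicate gave -0.15 to -0.07 for miR-26a-5p, -0.44 to -0.06 for miR-26b-5p and 0.11 to 0.28 for miR-26b-3p. For the within-array difference it gave -0.37 to 0.049, the last without high-fat replicate 2. The sign of miR-26a-5p was kept in 23 of 26 alternatives, that of miR-26b-5p in 25 of 26 and that of miR-26b-3p in 21 of 24. These counts do not measure stability, since some alternatives could not change the difference. The other filters, the higher floor, the intensity trend and the replicate block left the values of the main strands as they were. The header block and header position 1 give 1 estimate, counted in both. No direction is drawn from the count for miR-26b-3p. miR-26b-3p had no value under a floor 4 times higher or a filter on all 6 arrays. With the replicate block, miR-26a-5p and miR-26b-5p had limma adjusted p-values of 0.810 and 0.608, the within-array difference was -0.20, and 3 miRNAs were called, so the block changed no call of a main strand.

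The count of miRNAs past the threshold, 2, was 8 with normexp and the 75th percentile, 5 without scaling, 4 with an intensity trend and 1 with the mean over probes or outlier spots kept. It was 0 with limma on the authors' deposited table, with quantile normalisation, no filter, a floor 4 times higher, the header position as a block and within header position 1; at an unadjusted p under 0.05 the count was 50. Leaving out each replicate gave 0 to 3 by limma, with 0 without high-fat replicate 2 or 3 or chow replicate 2 or 3. Without scaling the split of calls was 4 higher and 1 lower, against 1 and 1. A signal near background limits miR-26b-3p, and 3 arrays per diet limit all strands.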

Other observations

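The following values on high-fat replicate 2 were looked at after the low miR-26b-5p value was seen. Of the 20 miRNAs lowest there relative to the other 2 high-fat arrays, 18 had a RefSeq sequence and 8 had up to 35% G and C, against 8.76% of all 388. Both arms of miR-190a were among the 3 lowest, with miR-190a-3p at -1.06 and miR-190a-5p at -0.92. In the let-7 family, whose members share a seed as the miR-26 strands do, let-7f-5p with 7 G or C of 22 bases stood at -0.45 and miR-98-5p, also with 7, at -0.39. let-7g-5p with 8 stood at -0.47, let-7a-5p with 8 at -0.17, and let-7b-5p with 10 at 0.09. The let-7 members with 9 G or C lay between -0.23 and 0.14. The values are described for 1 array and were not tested.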
